A study of Mus musculus with 7 samples.

Results

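The genes described here are 5 STAT factors (Stat3, Stat4, Stat5a, Stat5b and Stat6) and 4 SOCS family feedback inhibitors (Socs1, Socs2, Socs3 and Cish), 9 of 18193 genes on the arrays. They were chosen by name and are represented by 22 of the 34945 probe sets that carry exactly 1 gene symbol. A probe set is a group of short probes on the array that together report 1 transcript. The value used for a gene is its probe set of highest mean, and 7 of the 9 genes were bright enough to be tested, among 10874 genes in all.

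Thymic T cells of C57BL/6J mice aged 4-6 weeks were sorted, and their RNA was amplified, labelled with biotin and measured on 7 Affymetrix arrays. The NKT lineage (natural killer T) responds to lipids shown by the molecule CD1d, and stage 1 is an early stage of its maturation in the thymus. These cells were sorted as CD1d tetramer+ CD24low CD44- NK1.1- cells. Stage 1 NKT from mice with a Valpha14 T cell receptor transgene (Valpha14 tg) made up 2 arrays. Stage 1 NKT of mice with the same Valpha14 transgene and the Luxoid mutation, described in the labels as PLZF-deficient, made up 3 arrays and are called Luxoid NKT here. PLZF is the transcription factor encoded by Zbtb16. CD4SP, the CD4 single-positive thymocytes, came from wild-type mice without the transgene and made up 2 arrays. Every sample was a pool of mice, so an array gives the mean of several animals, and samples of a group are biological replicates per the labels. All NKT samples carry the transgene, which fixes their T cell receptor alpha chain, and the CD4SP samples do not, so cell type, transgene and sort cannot be told apart between NKT and CD4SP. The cell type label of the CD4SP samples repeats the sort of the NKT cells. Their title, source and description name CD4SP, and this was followed.

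Cytokines act on T cells through receptor chains that carry Janus kinases (JAKs). The kinases phosphorylate STAT proteins, which pair, enter the nucleus and switch on target genes. SOCS proteins, including CIS, the product of Cish, are among these targets and shut the pathway down by blocking or degrading receptors and kinases. Interleukin-2 (IL-2) and interleukin-7 act mainly through STAT5, interleukin-4 through STAT6, interleukin-12 through STAT4, and interleukin-6 and interleukin-21 mainly through STAT3. The arrays measure RNA of these genes, not the phosphorylated proteins that carry the signal.

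The deposited intensities had array medians of 79.6 to 83.7 and correlations between arrays, over all 45037 probe sets on the log2 scale, of 0.968 to 0.992. Zbtb16 was at 2751 and 3488 in stage 1 NKT, 1857, 2774 and 2645 in Luxoid NKT and 87.3 and 61.8 in CD4SP. Its other 2 probe sets had all Luxoid arrays below both stage 1 NKT arrays (-0.87 and -0.76, adjusted p = 0.123 and 0.0576 with every probe set tested). Luxoid is known as a nonsense mutation, and where its site lies relative to the probes is not given in the labels, so these levels of RNA do not serve as a check of the protein. The sort markers were as the group names say for Cd24a, at 14.1 to 57.1 in the 5 NKT arrays against 246 and 239 in CD4SP. Cd4 was at 1888 to 2360 in NKT and 5824 and 6754 in CD4SP, and Cd44 overlapped between groups. The male-specific gene Eif2s3y was at 9.93 to 11.6 in the arrays numbered 1 of each group and at 490 to 1424 in the other 4, so every group held both kinds of pool. In bulk RNA, fewer cells of a type and less RNA per cell cannot be told apart. A gene was tested where it reached an intensity of 82.0, the median of all values and called the floor here, in at least 2 arrays. Tests are limma's moderated test, two-sided, over the 10874 genes, and a gene is said to have passed at a Benjamini-Hochberg adjusted p under 0.05. Differences are on the log2 scale with their standard error (SE), and levels are linear intensities, which are not comparable between genes.

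Every member that passed did so in a comparison of NKT with CD4SP thymocytes. In stage 1 NKT, 3 genes were lower than in CD4SP: Stat4 by 3.07-fold, Socs3 by 3.10-fold and Cish by 1.98-fold. None was higher. Of all tested genes, 14.9% passed in this comparison, 10.8% as higher and 4.08% as lower. In Luxoid NKT, Stat4 (2.13-fold) and Socs3 (2.61-fold) were lower than in CD4SP, where 16.8% of all genes passed, 11.3% as higher and 5.51% as lower. Between Luxoid and stage 1 NKT, 0 of the 7 tested members passed limma's test, against 1.55% of all genes (0.901% as higher and 0.653% as lower). An unadjusted p under 0.05 was reached there by 1 member, Cish, against 11.6% of all genes, by 5 for stage 1 NKT minus CD4SP against 29.1%, and by 4 for Luxoid NKT minus CD4SP against 29.7%. The median difference of the 7 members was -0.50 for stage 1 NKT minus CD4SP, -0.37 for Luxoid NKT minus CD4SP and 0.14 for Luxoid minus stage 1 NKT, beside 0.06, 0.02 and -0.03 over all genes.

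**Figure D1:**
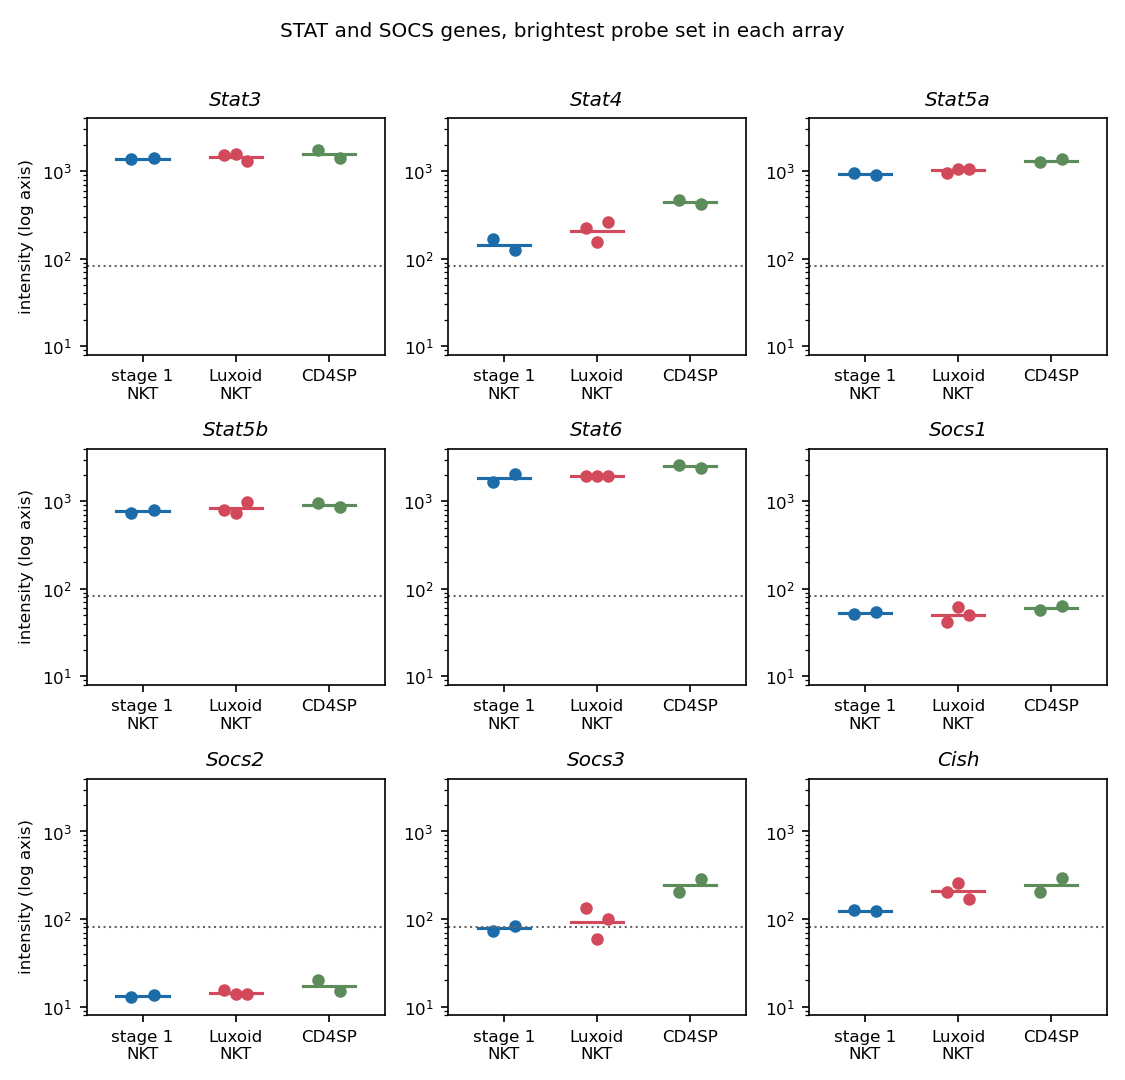
Intensity of the 9 genes on each of the 7 arrays, on a log axis, with 1 panel per gene, points for arrays, bars for the geometric mean of a group and a dotted line at the floor of 82.0. Stat4, Socs3 and Cish were lower in both stage 1 NKT arrays than in both CD4SP arrays, whereas Socs1 and Socs2 stayed under the floor on all arrays.

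Stat4 carries signals of interleukin-12 and is known for driving interferon gamma production. Its intensity was 168 and 124 in stage 1 NKT, 221, 155 and 264 in Luxoid NKT, and 465 and 422 in CD4SP. Both CD4SP arrays were above all NKT arrays, and 1 Luxoid array lay inside the range of stage 1 NKT. The geometric means were 144, 208 and 443. Stage 1 NKT differed from CD4SP by -1.62 ± 0.26 (SE, n = 2 and 2, limma adjusted p = 0.00426). That call held in all 19 alternative analyses, with adjusted p of 0.000907 to 0.0439 when single arrays were left out. Luxoid NKT differed from CD4SP by -1.09 ± 0.24 (n = 3 and 2, adjusted p = 0.0146). It was lost without CD4SP replicate 1 (adjusted p = 0.105) or replicate 2 (0.0812). Luxoid minus stage 1 NKT was 0.53 ± 0.24, with a 95% interval of -0.01 to 1.07 and adjusted p = 0.439, and was 0.31 without stage 1 NKT replicate 2. The number of arrays limits the precision of this last difference.

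Stat3, the factor downstream of the shared receptor chain gp130, had the smallest mean difference of the 7 members in all 3 comparisons. Its intensity was 1366 and 1412 in stage 1 NKT, 1522, 1585 and 1302 in Luxoid NKT, and 1722 and 1412 in CD4SP. The 3 groups overlapped. The differences were -0.17 ± 0.17 for stage 1 NKT minus CD4SP (95% interval -0.55 to 0.22, adjusted p = 0.552) and -0.09 ± 0.15 for Luxoid NKT minus CD4SP (-0.44 to 0.26, 0.742). Between the NKT groups, Luxoid minus stage 1 was 0.08 ± 0.15 (-0.27 to 0.43, 0.911). Stat3 has 4 probe sets, 1 of them under the floor. The dimmest of the other 3 read 234 and 173 in stage 1 NKT and 163, 153 and 161 in Luxoid NKT, a difference of -0.34 with no overlap, in the direction opposite to the brightest probe set.

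Stat5a and Stat5b are closely related factors of interleukin-2 and interleukin-7 signalling. Stat5a read 955 and 906 in stage 1 NKT, 943, 1066 and 1068 in Luxoid NKT and 1277 and 1362 in CD4SP. Both CD4SP arrays were highest. Stage 1 NKT minus CD4SP was -0.50 ± 0.15, a level 1.42-fold lower with a 95% interval of -0.84 to -0.17, and its adjusted p of 0.0509 missed the threshold. It passed in 7 of the 19 alternatives (adjusted p from 0.0328 to 0.0406 in those 7). Luxoid NKT minus CD4SP was -0.37 ± 0.13 (adjusted p = 0.103). Stat5b read 739 and 794 in stage 1 NKT, 794, 742 and 969 in Luxoid NKT and 965 and 860 in CD4SP. The Luxoid arrays overlapped both other groups. Its differences from CD4SP were -0.25 ± 0.17 in stage 1 NKT (adjusted p = 0.376) and -0.14 ± 0.16 in Luxoid NKT (0.616). Between the NKT groups the difference was 0.14 ± 0.13 for Stat5a (95% interval -0.16 to 0.44) and 0.12 ± 0.16 for Stat5b (-0.24 to 0.47). Probe sequences were not used here, so how far the probe sets of these similar transcripts read each other was not tested. The genes Stat5b, Stat5a and Stat3 are neighbours on chromosome 11 (GRCm38.p6, chr11:100780731-100859004, chr11:100859351-100885169 and chr11:100886806-100939594).

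Stat6 carries interleukin-4 signals, and interleukin-4 is a cytokine that NKT cells are known to make. Stat6 read 1650 and 2024 in stage 1 NKT, 1931, 1940 and 1970 in Luxoid NKT and 2604 and 2427 in CD4SP. The CD4SP arrays were above all 5 NKT arrays, and the Luxoid arrays lay within the range of stage 1 NKT. Stage 1 NKT minus CD4SP was -0.46 ± 0.15, a level 1.38-fold lower that missed the threshold (95% interval -0.81 to -0.11, adjusted p = 0.0824) and passed with an intensity trend and robust prior (0.0455). Luxoid NKT minus CD4SP was -0.37 ± 0.14 (adjusted p = 0.117, and 0.0497 with the mean of the probe sets). For Stat6, Luxoid minus stage 1 NKT was 0.09 ± 0.14 (-0.23 to 0.41, adjusted p = 0.877). The dimmer probe set of Stat6 also put both CD4SP arrays highest, at 240 and 229 against 174 to 186 in the NKT arrays.

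**Figure D2:**
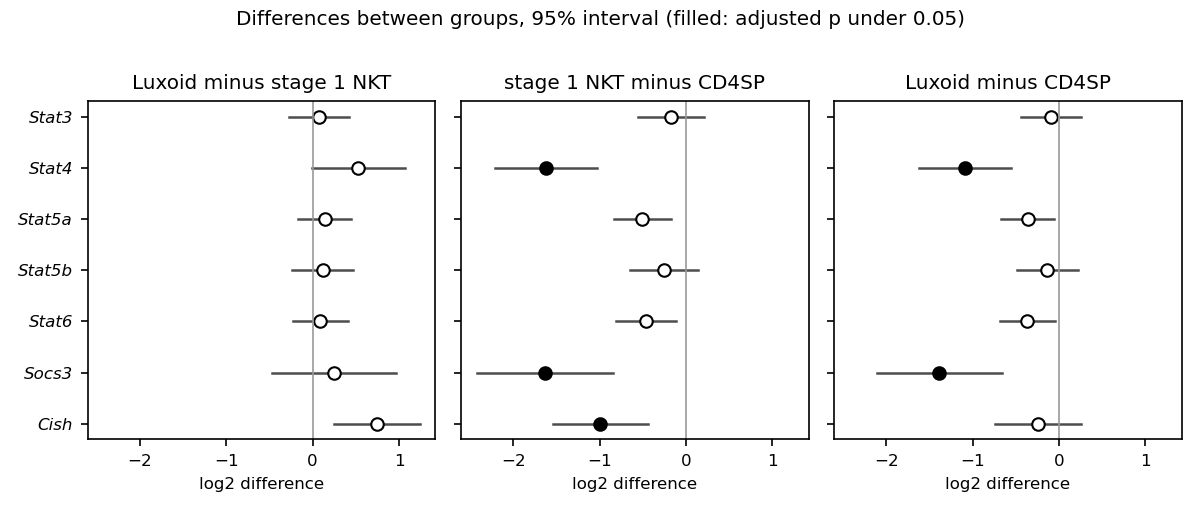
Log2 difference between groups for the 7 tested genes, with 1 panel per comparison, 95% intervals as bars and filled points for an adjusted p under 0.05. All 7 point estimates lie below 0 in both comparisons with CD4SP and above 0 for Luxoid minus stage 1 NKT, where 6 of the 7 intervals include 0.

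The shared direction of the 7 genes is set here beside that of all genes. For stage 1 NKT minus CD4SP 43.8% of all tested genes had a difference below 0, for Luxoid NKT minus CD4SP 47.6%, and for Luxoid minus stage 1 NKT 56%. Other probe sets of Stat3 (-0.34), Stat6 (-0.04) and Socs3 (-0.29) had a Luxoid minus stage 1 NKT difference below 0, so that shared direction holds for the brightest probe sets only. The comparisons share arrays, so a member's 3 differences are not independent. The arrays of the groups did not overlap for 6 of the 7 members between stage 1 NKT and CD4SP, against 60.2% of all genes, and for 4 between Luxoid NKT and CD4SP, against 46%. Between Luxoid and stage 1 NKT they did not overlap for 1 member, Cish, against 26.7% of all genes.

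Of the feedback genes, Cish and Socs3 are the ones whose results turn on their RNA here, and both are known targets of STAT factors. Their promoters are therefore shown, read from the RefSeq promoter table of GRCm38.p6, 5′ to 3′ on the gene's own strand. Capitals mark matches to TTCNNNGAA, the palindromic core of the sequence that STAT dimers bind. Cish is on the plus strand, and the stretch is chr9:107296409-107296678, from 250 bases before the gene start to base 20. Socs3 is on the minus strand, and the stretch is chr11:117969367-117969616, the 250 bases before the start used in the promoter table. The RefSeq gene position of Socs3 is chr11:117966079-117970336, so this stretch lies inside that span. Positions given for Socs3 hold for the start of the promoter table only.
Cish: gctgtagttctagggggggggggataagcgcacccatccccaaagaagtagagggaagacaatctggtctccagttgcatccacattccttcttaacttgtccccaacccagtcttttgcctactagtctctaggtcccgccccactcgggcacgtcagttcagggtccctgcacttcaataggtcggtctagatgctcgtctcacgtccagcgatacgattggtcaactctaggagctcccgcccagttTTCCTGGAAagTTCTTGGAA
Socs3: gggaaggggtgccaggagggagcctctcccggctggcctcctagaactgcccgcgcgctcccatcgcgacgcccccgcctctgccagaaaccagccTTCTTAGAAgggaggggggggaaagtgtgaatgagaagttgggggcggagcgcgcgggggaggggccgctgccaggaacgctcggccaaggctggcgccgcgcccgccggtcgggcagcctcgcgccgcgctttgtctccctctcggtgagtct
In Cish the matches are TTCCTGGAA at bases 1 to 9 and TTCTTGGAA at bases 12 to 20 from the gene start, with 2 bases between them. In Socs3 the match TTCTTAGAA lies at positions -154 to -146 from the start of the promoter table. Promoters were found for 8 of the 9 genes, all but Socs2. In the 300-base window from 250 before to 50 after the start, 2 of the 8 genes held TTCNNNGAA. Over the whole table it was in 9.55% of the genes (8.3% of the 32851 promoters, as a gene can have several). The form with TTC and GAA 1 base further apart, which STAT6 is known to prefer, was in 0 of the 8 genes, and in 8.01% of all genes (6.95% of promoters). Each motif is its own reverse complement, so 1 search covers both strands. These are matches of letters and were not measured as binding.

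Cish encodes CIS, which is induced by STAT5 and restrains IL-2 receptor signalling. Its single probe set read 125 and 122 in stage 1 NKT, 203, 261 and 168 in Luxoid NKT, and 206 and 293 in CD4SP. Both stage 1 NKT arrays were below all other arrays, and Luxoid NKT overlapped CD4SP. Stage 1 NKT minus CD4SP was -0.99 ± 0.24 (95% interval -1.53 to -0.44, limma adjusted p = 0.0262). The call was lost without stage 1 NKT replicate 1 (adjusted p = 0.127), stage 1 NKT replicate 2 (0.122) or CD4SP replicate 2 (0.171). Cish in Luxoid minus stage 1 NKT was 0.74 ± 0.22, a level 1.67-fold higher in Luxoid NKT in 3 of 3 arrays (95% interval 0.24 to 1.24). With an unadjusted p of 0.00852 and an adjusted p of 0.196 it did not pass. Among arrays with low Eif2s3y this difference was 0.69, and among the others 0.77. Luxoid NKT minus CD4SP was -0.25 ± 0.22 (-0.74 to 0.25, adjusted p = 0.499).

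Socs3 is known as a target of STAT3 that binds gp130 and blocks interleukin-6 signals. Its brightest probe set read 72.1 and 84.3 in stage 1 NKT, 133, 59.2 and 101 in Luxoid NKT, and 202 and 290 in CD4SP. Both CD4SP arrays were highest, 1 stage 1 NKT array and 1 Luxoid array lay under the floor, and Luxoid NKT enclosed stage 1 NKT. Stage 1 NKT minus CD4SP was -1.63 ± 0.35 (limma adjusted p = 0.0155), a call lost without stage 1 NKT replicate 1 (0.114), stage 1 NKT replicate 2 (0.0690) or CD4SP replicate 2 (0.118). Luxoid NKT minus CD4SP was -1.39 ± 0.32 (adjusted p = 0.0188), lost without CD4SP replicate 1 (0.0535) or replicate 2 (0.166). Among arrays with low Eif2s3y this second difference was -0.60, and among the others -1.91. Luxoid minus stage 1 NKT was 0.25 ± 0.32 (95% interval -0.47 to 0.97), and this estimate was 0.88 in the first set of arrays and -0.12 in the second.

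The calls for Socs3 rest on that probe set, whose suffix marks some of its probes as able to match other transcripts. A second probe set with the same suffix read 82.8 and 96.1 in stage 1 NKT, 119, 38.4 and 84.8 in Luxoid NKT and 148 and 263 in CD4SP. With every probe set tested on its own, this one differed from CD4SP by -1.14 in stage 1 NKT (adjusted p = 0.171) and -1.44 in Luxoid NKT (0.0630), neither of which passed. The third, without the suffix, reached the floor in 1 array only and was not tested. It read 37.7 and 49.3 in stage 1 NKT, 49.5, 81.6 and 47.5 in Luxoid NKT and 99.4 and 79.7 in CD4SP, differences from CD4SP of -1.05 and -0.63. All 3 probe sets of Socs3 were lower in both stage 1 NKT arrays than in both CD4SP arrays.

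Socs1, the inhibitor of JAK1 and JAK2 known to restrain interferon and common gamma chain signals, read 51.5 and 54.3 in stage 1 NKT, 41.2, 62.7 and 50.3 in Luxoid NKT and 57.8 and 64.4 in CD4SP. Socs2, a regulator of growth hormone signalling, had 6 probe sets, and all of them were below 20.2 on every array. Both genes were under the floor on all 7 arrays and were not tested, so no difference is given for them. The floor is the median of all values and not a limit of detection, so it sets no upper bound on their RNA.

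**Figure D3:**
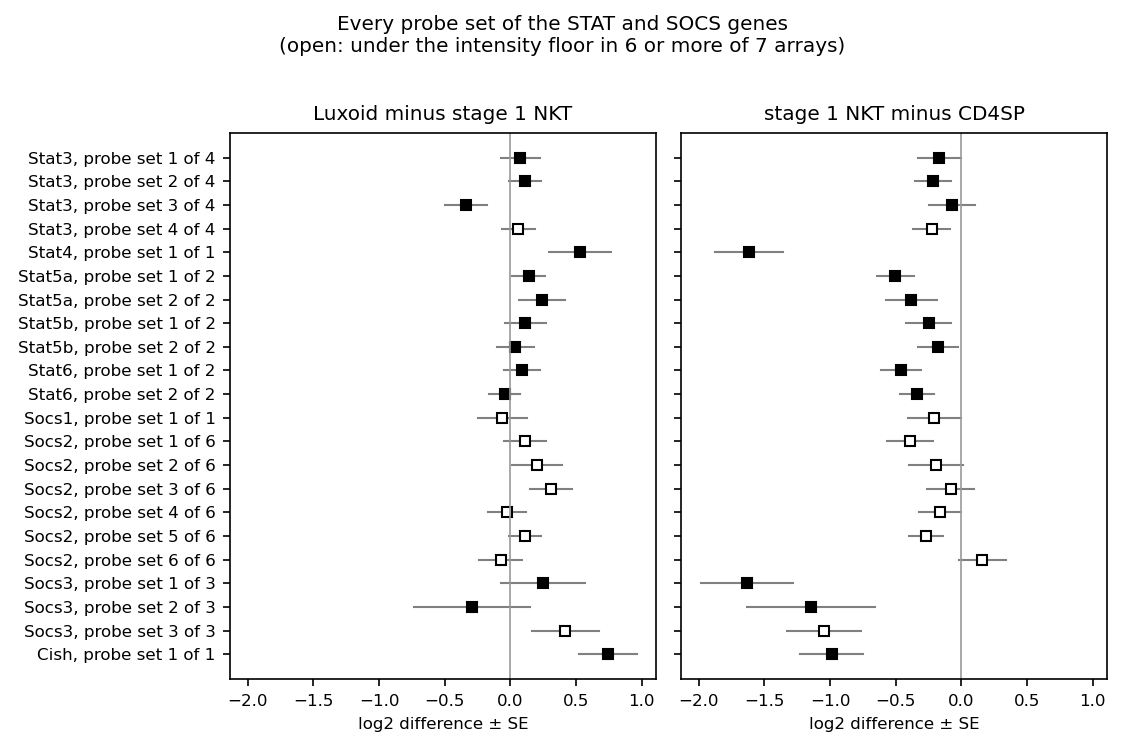
Log2 difference ± SE of each of the 22 member probe sets, numbered from the brightest of a gene, for Luxoid minus stage 1 NKT and stage 1 NKT minus CD4SP, with open squares for probe sets under the floor in 6 or more of the 7 arrays. For stage 1 NKT minus CD4SP all 3 probe sets of Socs3 lie at -1.05 or below, while for Luxoid minus stage 1 NKT they fall on both sides of 0.

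Markers of other cells also differed between the groups. For immature double-positive thymocytes, the summed level of 6 markers was 254 to 258 in stage 1 NKT, 369 to 451 in Luxoid NKT and 704 to 808 in CD4SP. The defining markers Rag1, Rag2, Ptcra and Arpp21 were under the floor on all arrays. Dntt, which encodes the terminal transferase of immature lymphocytes, read 73.7 and 46.4, then 98.0, 51.1 and 120, and 461 and 527 in the same order of groups. Cd8a, the other bright marker of the list, read 82.3 and 93.6, then 144, 184 and 152, and 135 and 148. It passed as higher in Luxoid than in stage 1 NKT (0.86, adjusted p = 0.0342), and its mean was no higher in CD4SP than in Luxoid NKT. For regulatory T cells, the sum of 5 markers was 2140 to 2548, 2044 to 3010 and 2809 to 3204 in the same order, so that Luxoid NKT overlapped both other groups. Foxp3 read 161 and 166 in stage 1 NKT, 193, 148 and 174 in Luxoid NKT and 465 and 449 in CD4SP. Ctla4 and Tnfrsf18 of the same list passed as lower than in CD4SP in both stage 1 and Luxoid NKT. The differences were -2.85 and -2.76 for Ctla4 (limma adjusted p = 0.000135 and 6.88e-05). For Tnfrsf18 they were -0.72 and -0.58 (limma adjusted p = 0.0179 and 0.0259). Ikzf2 of the same list went the other way, at 1335 and 902 in stage 1 NKT and 1596, 910 and 1170 in Luxoid NKT. In CD4SP Ikzf2 read 540 and 453, and it passed as higher in both NKT groups (1.15 and 1.27, adjusted p = 0.0279 and 0.0111). Of the 7 myeloid markers 6 were under the floor on all arrays, as were both erythroid markers. The other myeloid marker, Fcgr3, read 104 and 125 in stage 1 NKT and 192, 174 and 155 in Luxoid NKT. In CD4SP it read 111 and 98.0. Fcgr3 passed as higher in Luxoid NKT than in CD4SP (0.73, limma adjusted p = 0.0143). Its Luxoid minus stage 1 NKT difference of 0.60 did not pass (limma adjusted p = 0.136), with all Luxoid arrays above both stage 1 NKT arrays. The part of these other cells in the member results was not tested.

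Upstream of the STAT factors, few cytokine genes were bright enough to be tested (4 of 14 on the array, of 15 listed). Il4 and Il13, the type 2 cytokines, and Il21 were higher in both NKT groups than in CD4SP, 3 of the 4. Il4 and Il21 reached the floor in the 5 NKT arrays only, so they were tested through the groups where they were high. The count is therefore no test of the ligands as a set. Of all tested genes, 10.8% passed as higher in stage 1 NKT and 11.3% in Luxoid NKT. Il4 read 566 and 489 in stage 1 NKT, 275, 222 and 203 in Luxoid NKT and 49.3 and 51.9 in CD4SP. Luxoid NKT thus lay between the other groups. Il4 fell by 1.19 on the log2 scale from stage 1 to Luxoid NKT (SE 0.17, adjusted p = 0.0100, and 0.131 or 0.0777 without stage 1 NKT replicate 1 or 2). Il13 passed as lower too, at -1.35 ± 0.22 (adjusted p = 0.0204), and lost its call without stage 1 NKT replicate 1 (0.113) or 2 (0.279) or without Luxoid replicate 1 (0.0525) or 3 (0.0802).

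Receptor chains hold most of the pathway genes that passed between Luxoid and stage 1 NKT. Of 18 tested chains (23 listed), 6 were higher and 1 lower in Luxoid NKT, and the median difference was -0.05. Of all tested genes, 0.901% were higher and 0.653% lower there. The list was chosen with earlier results of these data known, so the count is no test of the chains as a set. Il4ra, the interleukin-4 receptor chain that recruits STAT6, read 173 and 277 in stage 1 NKT, 734, 895 and 742 in Luxoid NKT and 1075 and 1017 in CD4SP. Every Luxoid array was above both stage 1 NKT arrays. The difference was 1.85 ± 0.21 (adjusted p = 0.00295), or 1.21 with the mean of its probe sets. Il6st, which encodes gp130, read 714 and 714 in stage 1 NKT, 1619, 2149 and 2005 in Luxoid NKT and 2605 and 3145 in CD4SP. It was 2.68-fold higher in Luxoid than in stage 1 NKT (1.42 ± 0.17, adjusted p = 0.00385; 0.0584 or 0.0668 without stage 1 NKT replicate 1 or 2). It was lower in stage 1 NKT than in CD4SP by -2.00 ± 0.18 (adjusted p = 0.000223).

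Il10ra, the interleukin-10 receptor chain that signals through STAT3, had the largest difference of the chains. It read 108 and 92.2 in stage 1 NKT, 583, 475 and 672 in Luxoid NKT and 108 and 87.4 in CD4SP. It was thus high in Luxoid NKT alone, 5.73-fold above stage 1 NKT (2.52 ± 0.18, adjusted p = 0.000477, or 1.64 with the mean of its probe sets). Ifngr1, the ligand-binding chain for interferon gamma, read 163 and 190 in stage 1 NKT, 561, 607 and 540 in Luxoid NKT and 303 and 388 in CD4SP. All Luxoid arrays were highest, 3.23-fold above stage 1 NKT (1.69 ± 0.16, adjusted p = 0.00126). The calls of Il10ra and Ifngr1 between the NKT groups held in all 7 analyses that left out an array. Ifngr2, the partner chain, passed as lower for Luxoid NKT minus CD4SP, at -1.87 ± 0.13 (adjusted p = 4.93e-05). It passed as lower for stage 1 NKT minus CD4SP too, at -1.30 ± 0.15 (limma adjusted p = 0.000716). Its Luxoid minus stage 1 NKT difference of -0.57 did not pass (limma adjusted p = 0.101).

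Il2rb, the IL-2 and interleukin-15 receptor beta chain upstream of STAT5, read 1472 and 2095 in stage 1 NKT, 3285, 3812 and 3240 in Luxoid NKT and 675 and 593 in CD4SP. Il2rb was thus highest in Luxoid NKT and lowest in CD4SP. Luxoid minus stage 1 NKT was 0.97 ± 0.18 (adjusted p = 0.0389), but the call was lost whichever array was left out (0.0638 to 0.284). The NK cell marker sum moved with it, at 321 to 439 in stage 1 NKT, 1063 to 1111 in Luxoid NKT and 166 to 188 in CD4SP. Of its 5 markers Ncr1, Klra8 and Klrk1 were under the floor on all arrays. The sum followed Fcer1g, a signalling adaptor gene, at 253 and 218 in stage 1 NKT, 843, 982 and 951 in Luxoid NKT and 68.9 and 82.5 in CD4SP, while Gzma overlapped between the NKT groups (0.28, adjusted p = 0.856). The part of NK cells in the result was not tested. Il21r, a chain upstream of STAT3, passed at 0.82 ± 0.15 (adjusted p = 0.0359), a call lost without stage 1 NKT replicate 1 (0.283) or 2 (0.238), Luxoid replicate 2 (0.0765) or 3 (0.105), or either CD4SP replicate (0.0866). Il12rb1, upstream of STAT4, read 571 and 687 in stage 1 NKT, 318, 279 and 243 in Luxoid NKT and 166 and 186 in CD4SP. It was lower in Luxoid NKT by -1.17 ± 0.16 (adjusted p = 0.0106, and 0.0597 or 0.170 without stage 1 NKT replicate 1 or 2), while Stat4 itself had a higher mean there that did not pass.

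Of the 4 Janus kinases, 0 passed limma's test between Luxoid and stage 1 NKT, and 0 had an unadjusted p under 0.05. The shares of all tested genes there were 1.55% and 11.6%, so a count of 0 among 4 genes says little. Jak1 had a difference of -0.0040 with a 95% interval of -0.30 to 0.29. Jak3, the partner of the common gamma chain, read 96.2 and 124 in stage 1 NKT, 98.9, 135 and 158 in Luxoid NKT and 218 and 186 in CD4SP. The CD4SP arrays were highest. Stage 1 NKT minus CD4SP was -0.88 ± 0.24 (adjusted p = 0.0405), a call lost without stage 1 NKT replicate 1 (0.242) or 2 (0.0798) or CD4SP replicate 1 (0.190) or 2 (0.114). Stat2, which carries interferon signals, is not among the members, and its difference for the same groups was -0.47 (adjusted p = 0.119).

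Among the other inhibitor genes, Socs5, Pias3 and the phosphatase gene Ptpn1 passed in at least 1 comparison with CD4SP. Of the 4 remaining SOCS genes, all of them tested, 0 passed limma's test for stage 1 NKT minus CD4SP and 1 had an unadjusted p under 0.05. The shares of all tested genes there were 14.9% and 29.1%. Socs5 passed as higher in Luxoid NKT than in CD4SP at 0.98 ± 0.28 (adjusted p = 0.0468). It read 222 and 208 in stage 1 NKT, 199, 363 and 170 in Luxoid NKT and 116 and 117 in CD4SP. The call was lost in 5 of 7 analyses that left out an array (without Luxoid replicate 1 at 0.0575, and without either stage 1 NKT array at 0.0827 or CD4SP replicate 1 or 2 at 0.190 or 0.202), and the difference was 0.44 with the mean of its probe sets. Against 14.9% of all tested genes, 1 of 10 PIAS proteins, phosphatases and adaptors passed between stage 1 NKT and CD4SP. This was Pias3, an inhibitor of STAT3, at 154 and 161 in stage 1 NKT, 229, 154 and 176 in Luxoid NKT and 43.5 and 59.6 in CD4SP. Pias3 was at least 1.92-fold higher in stage 1 NKT (1.63 ± 0.22, adjusted p = 0.00204) and at least 2.24-fold higher in Luxoid NKT (1.85, adjusted p = 0.000511) than in CD4SP. With the mean of its probe sets these differences were 0.98 and 1.06. Ptpn1 was higher in Luxoid NKT than in CD4SP by 0.55 ± 0.13 (adjusted p = 0.0228), a call lost without Luxoid replicate 3 (0.0606) or CD4SP replicate 1 (0.109) or 2 (0.112).

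**Figure D4:**
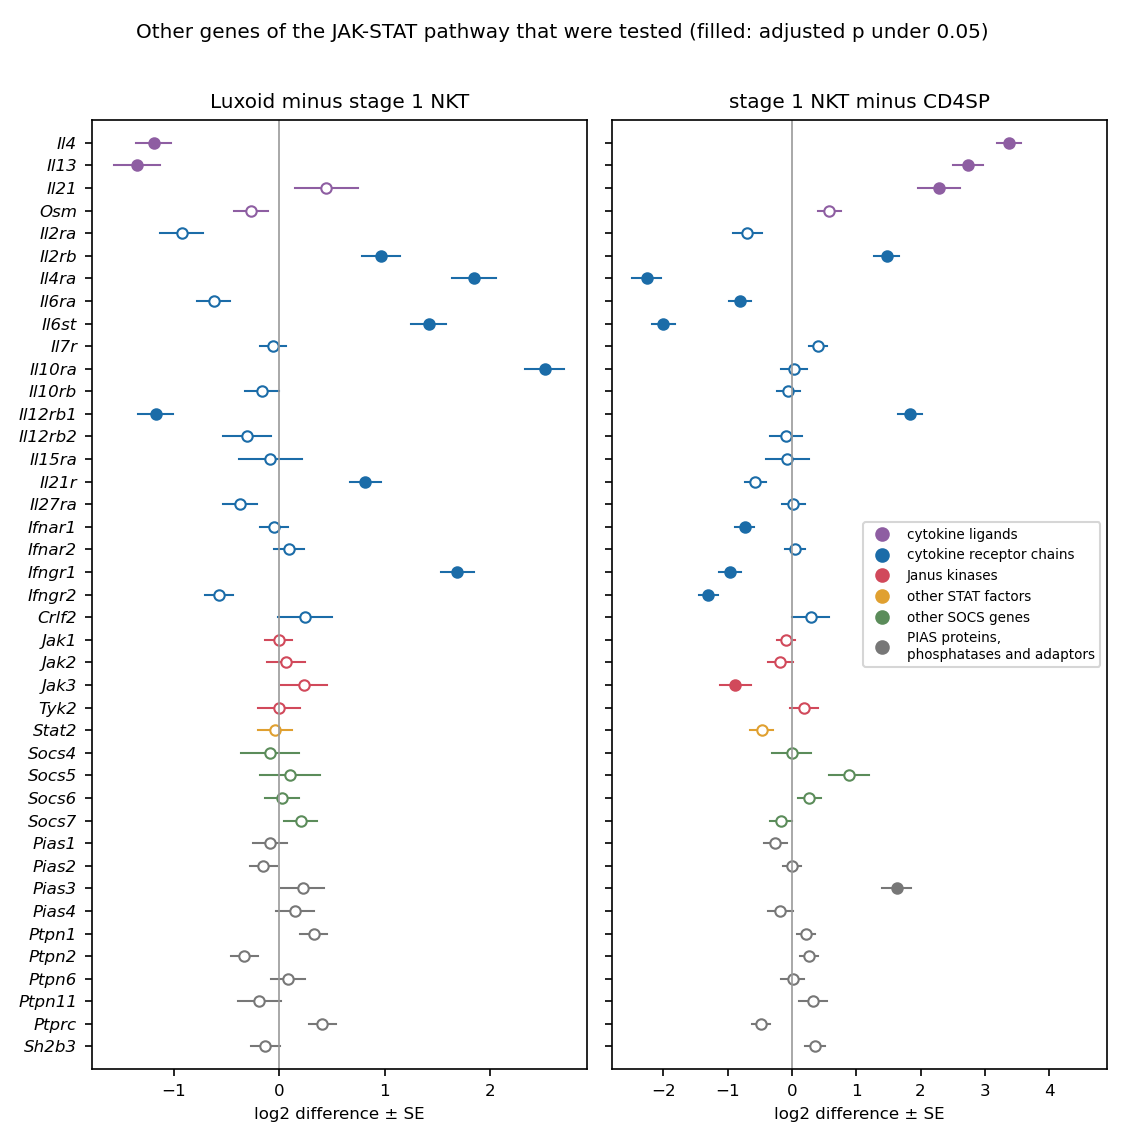
Log2 differences, with bars of 1 SE to each side, for 41 tested genes of the pathway that are no members, in rows grouped by role, for Luxoid minus stage 1 NKT and stage 1 NKT minus CD4SP, with filled points for an adjusted p under 0.05. Ligand and receptor genes hold the filled points of the first panel, while no kinase, STAT or inhibitor gene is filled there.

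Known targets of the factors were read from lists. Of 8 tested STAT5 targets, 0 passed between Luxoid and stage 1 NKT in limma's test and 1 had an unadjusted p under 0.05, Il2ra at -0.92 ± 0.21 (adjusted p = 0.0804). The shares of all tested genes there were 1.55% and 11.6%. Between stage 1 NKT and CD4SP 2 of the 8 targets were lower, against 4.08% of all tested genes. The list median was -0.31 beside 0.06 over all genes. The survival kinase gene Pim2 was lower by -0.86 ± 0.15 (adjusted p = 0.00663; 0.0583 without stage 1 NKT replicate 1 and 0.0552 without CD4SP replicate 2). Bcl2, which protects from cell death, was lower by -0.81 ± 0.15 (adjusted p = 0.00873; 0.0690 without stage 1 NKT replicate 2 and 0.0641 without CD4SP replicate 2). In Luxoid NKT, Il2ra was also lower than in CD4SP. It read 103 and 100 in stage 1 NKT, 62.3, 41.1 and 60.5 in Luxoid NKT and 148 and 185 in CD4SP, at least 2.02-fold between the last groups (-1.62, adjusted p = 0.00107, or -0.99 with the mean of its probe sets). Il2ra is also a regulatory T cell marker, and like Foxp3 it was highest in CD4SP. Between Luxoid and stage 1 NKT it did not follow Foxp3, with differences of -0.92 for Il2ra and 0.06 for Foxp3.

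Targets of STAT6, STAT4 and STAT3 passed in both directions or in few members. Of 6 tested STAT6 targets, 2 (Il4ra and Nfil3) were higher and 1 (Il4) was lower in Luxoid than in stage 1 NKT. Between stage 1 NKT and CD4SP 3 were higher and 2 lower. The chemokine receptor genes Ccr4 and Ccr8 lay at opposite ends, Ccr4 at 2235 and 2311 in stage 1 NKT against 210 and 200 in CD4SP, and Ccr8 at 76.3 and 89.0 against 396 and 257. The Luxoid call of Nfil3, at 1.43 ± 0.16 (adjusted p = 0.00354), was lost without stage 1 NKT replicate 2 (0.0685). Of 6 tested STAT4 targets 1 was lower in Luxoid NKT, Il18rap, a chain of the interleukin-18 receptor. It read 183 and 141 in stage 1 NKT and 76.1, 57.6 and 46.3 in Luxoid NKT, at least 1.96-fold lower (-1.45 ± 0.22, adjusted p = 0.0148; 0.172 or 0.0807 without stage 1 NKT replicate 1 or 2). For stage 1 NKT minus CD4SP 3 of the 6 STAT4 targets were higher, against 10.8% of all tested genes, and Stat4 was lower. The part of Stat4 in these target levels was not tested. Il18r1 was among these targets at 2373 and 2205 in stage 1 NKT against 382 and 699 in CD4SP (2.15, adjusted p = 0.00184). Il18rap passed there at 0.86 ± 0.24 (limma adjusted p = 0.0447, and 0.0614 without the filter). Tbx21, which encodes the type 1 regulator T-bet, was at least 1.35-fold higher in stage 1 NKT (0.90, adjusted p = 0.0108), a call lost without either stage 1 NKT replicate (0.0849 and 0.0538) or either CD4SP replicate (0.0698 and 0.0583). Of 6 tested STAT3 targets, Bcl6, a repressor known for follicular helper T cells, was higher in Luxoid NKT (1.46, adjusted p = 0.00143) in all 19 alternatives. Rora, a nuclear receptor gene known for type 17 cells, was the 1 that was lower. It read 1703 and 1922 in stage 1 NKT, 378, 365 and 571 in Luxoid NKT and 165 and 231 in CD4SP, 4.22-fold lower in Luxoid than in stage 1 NKT (-2.08 ± 0.23, adjusted p = 0.00293, and 0.0638 without stage 1 NKT replicate 2). Maf, a factor known to drive interleukin-4 and interleukin-21 genes, was higher than in CD4SP in both stage 1 NKT (3.67, adjusted p = 0.000231) and Luxoid NKT (2.73, adjusted p = 0.000551, or 1.54 with the mean of its probe sets). Bcl3, of the same list, was lower in Luxoid NKT than in CD4SP, at 194, 253 and 116 against 462 and 602 (-1.56 ± 0.29, adjusted p = 0.00790, and 0.0897 without CD4SP replicate 2), and read 160 and 147 in stage 1 NKT. Over the union of these lists, 61 genes were tested of 80 listed. Between Luxoid and stage 1 NKT 8 were higher and 5 lower, between stage 1 NKT and CD4SP 13 and 12, and between Luxoid NKT and CD4SP 16 and 10. Of all tested genes 1.55%, 14.9% and 16.8% passed in these comparisons.

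The genes whose log2 profile over the 7 arrays was most like each called member, by root mean square difference after centring, were read from all tested genes as a description. For Stat4 they were Ncf1 (0.16), Sbno2 (0.23) and 2610307P16Rik (0.24), where the median over all genes was 0.72. For Socs3 they were Bcl2l11 (0.24), Carns1 (0.24) and Ndrg1 (0.27), with a median of 0.81. For Cish they were Dedd2 (0.10), Ms4a4b (0.17) and Ccm2 (0.17), with a median of 0.52. The group means of Dedd2 had the same order as those of Cish, with a Luxoid minus stage 1 NKT difference of 0.79 ± 0.19 (limma adjusted p = 0.118) that did not pass. Dedd2 was picked for its likeness to Cish on these same arrays, so its values are no independent support for the Cish difference.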

How the data were processed

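The 7 samples were hybridised to single-colour Affymetrix arrays after amplification with the WT-Ovation Pico system, per the labels' protocols. Per the submitters' processing notes, the authors used RMA in Affymetrix Expression Console, and no version is named; the annotation build is "not given in the sources used here". The method subtracts background, equalises the distribution of all arrays and summarises probes, which compresses differences of dim probe sets such as those of Socs1, Socs2 and Socs3. The deposited values are linear intensities (3.08 to 20875), and log2 was taken here.

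Probe sets were named from the platform annotation of GEO. Of 45037 probe sets, 34945 carried 1 symbol, 932 more than 1 and 9160 none. RefSeq (GRCm38.p6) held the gene ID of 34741 and altered 0 symbols. For each gene the probe set of highest mean was kept and tested at 82.0 (the 50th percentile) or more in 2 or more arrays. For a dimmer group wholly under 82.0, the fold is "at least" the brighter group over 82.0. With limma 3.58.1 (lmFit and eBayes, R 4.3.3) a mean per group was fitted to all 7 arrays (4 residual and 4.49 prior degrees of freedom), with Benjamini-Hochberg adjustment over 10874 genes in each comparison. The p-values measure the spread between pools. The fit was tested on simulated data first.

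The members and the gene lists were chosen with earlier results of these data known. Named were all members, each list member called between Luxoid and stage 1 NKT, up to 3 called members per list of largest difference in each other comparison, and the 3 genes most like each called member. Jak1, Stat2 and the markers of other cells, and the values of Ccr8 and Bcl3 in stage 1 NKT, are named outside that rule, after they were seen. The 19 alternatives changed the filter, the probe set rule, the normalization, the offset, the variance model, the covariates or left out an array. Detection calls and protein sequences were not analysed here.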

Additional observations from a re-analysis of the deposited data

How the results depend on the processing

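Over 19 alternatives, the 21 member differences gave 393 comparisons, of which 369 kept direction and side of the threshold, 10 lost a call, 9 gained one and 5 changed direction without a call. Over analyses without 1 array, Cish in Luxoid NKT minus CD4SP ranged from -0.50 to 0.0067 (without CD4SP replicate 2) and Stat3 there from -0.23 to 0.053 (without CD4SP replicate 1). For Luxoid minus stage 1 NKT, Socs3 ranged from -0.012 (without Luxoid replicate 1) to 0.57 and Stat6 from -0.056 (without stage 1 NKT replicate 1) to 0.24, and Stat3 was -0.022 with the mean of its probe sets. For the named pathway genes 782 of 864 comparisons kept both, 82 lost a call and 0 changed direction. The cause was not tested.

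Leaving out 1 array gave 55 to 178 genes for Luxoid minus stage 1 NKT, 643 to 1846 for stage 1 NKT minus CD4SP and 866 to 1726 for Luxoid NKT minus CD4SP, with 0 members in the first, 1 to 3 in the second and 0 to 2 in the third. With an intensity trend and robust prior 5 members passed for stage 1 NKT minus CD4SP. With the stricter filter 1 passed for Luxoid NKT minus CD4SP, since Socs3 was no longer tested. The shares of all genes at these settings are not given here, so neither count is read as a result about the members. With every probe set tested on its own, 2876 of 20360 probe sets passed for Luxoid NKT minus CD4SP, a count of probe sets and not of genes.

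With the replicate number as a block, 170, 2616 and 2299 genes and 0, 4 and 2 members passed for Luxoid minus stage 1 NKT, stage 1 NKT minus CD4SP and Luxoid NKT minus CD4SP. Luxoid replicate 3 is alone in its block and adds nothing there. Same-numbered samples deviated together (correlations of deviations 0.33 to 0.49), but the groups share only 2 numbers, which do not establish a pairing. The arrays numbered 1 are also those with low Eif2s3y. Over the shared numbers, replicate number and that signal therefore cannot be told apart. Signal near the floor limits Socs3, and signal under it leaves Socs1 and Socs2 untested.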
